A study of Mus musculus with 69 samples.

Results

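Leukocyte adhesion molecules are the 7 genes Icam1, Vcam1, Sele, Selp, Selplg, Itgam and Itgb2. They were taken as every probe whose transcript identifier maps to one of these symbols. This gave 11 probes of 41174 on the array, and all 7 genes were among the 17628 genes tested. Vcam1, Selp, Selplg and Itgam had 2 probes each, and the other genes had 1. The value used for a gene was the median over its probes.

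The samples were lungs of 69 female C57BL/6 mice, aged 5 to 7 weeks on arrival and kept for 1 to 3 weeks before exposure. Each mouse was instilled once into the trachea with 18, 54 or 162 µg of NRCWE-001, a TiO2 nanoparticle without surface charge, or NRCWE-002, a TiO2 nanoparticle with a positive charge, or with vehicle alone (2% serum in water, labelled as a water control). Lungs were taken 1 or 28 days later. There were 14 groups, each of 5 mice apart from the day 28 vehicle mice, of which there were 4. The exposed and vehicle mice shared strain, sex, anaesthesia and instillation. Each array held 1 lung, labelled with Cy5, against a common mouse reference RNA labelled with Cy3, and every level below is the log2 ratio of lung to reference. Because the reference differs from gene to gene, a level of 1 gene is not set against that of another. RNA came from a piece of whole lung, in which fewer cells of a type and less RNA per cell cannot be told apart.

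White blood cells leave the blood in steps. Selectins on the vessel wall (E-selectin, coded by Sele, and P-selectin, coded by Selp, which platelets also store) catch rolling cells through sugars on PSGL-1, the product of Selplg. Integrins on the leukocyte, among them Mac-1, made of the αM chain from Itgam and the β2 chain from Itgb2, then hold the cell by binding ICAM-1 on endothelium and epithelium, while VCAM-1 is bound by another integrin. Inflammatory cytokines acting through NF-kB are well known to raise ICAM-1, VCAM-1 and E-selectin, and in lung both capillary and alveolar cells make ICAM-1.

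The stretches just before the start sites of Icam1 and Sele are shown because Icam1 was the member with the most calls once slides were taken into account, and Sele is a textbook target of the same factor. They are the 250 bases upstream of the start site, read 5′ to 3′ on the plus strand, from RefSeq on GRCm38.p6; the array header names mm9, and no coordinate was carried between the builds. Capitals mark matches, on either strand, to GGNNNTTCC, a short form of the NF-kB site.
Icam1, chr9:21015690-21015939: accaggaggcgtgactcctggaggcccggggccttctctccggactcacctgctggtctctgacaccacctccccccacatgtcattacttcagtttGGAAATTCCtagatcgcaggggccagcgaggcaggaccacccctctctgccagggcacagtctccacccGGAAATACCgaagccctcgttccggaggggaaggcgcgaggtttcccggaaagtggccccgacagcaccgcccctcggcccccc
Sele, chr1:164047984-164048233: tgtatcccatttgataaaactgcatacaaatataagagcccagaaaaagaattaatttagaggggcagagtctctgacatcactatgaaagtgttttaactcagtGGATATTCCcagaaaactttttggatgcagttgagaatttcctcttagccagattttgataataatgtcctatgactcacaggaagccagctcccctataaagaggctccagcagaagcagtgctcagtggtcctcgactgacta
In Icam1 the 9 bases at -153 to -145 matched on both strands and those at -84 to -76 on the minus strand. In Sele the match lay at -145 to -137, on the plus strand, and a TATAAA was found at -49 to -44. Selp had 1 match, at -14 to -6, and the Itgam window had none. The motif was found in 15.7% of 32841 windows of this length and TATAAA in 12.4%, and a match describes the letters only. A longer form with 1 more T, present in 4.63% of windows, was not found in these 4 genes. RefSeq promoters of Vcam1, Selplg and Itgb2 were not used here.

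The 69 arrays lay on 18 slides of 3 or 4 arrays. Between 60.8% and 87.6% of probes were well above background on an array. In the lung channel, the probes of Icam1, Vcam1, Selplg, Itgam and Itgb2 passed this mark on all 69 arrays, as did the main Selp probe. The second Selp probe did so on 53. Sele was dim, with 13 arrays above background in this channel, and 0 of 9 vehicle arrays among them. In the reference channel, the 2 Itgam probes passed the mark on 13 and 38 arrays and the second Selp probe on 35. Many Itgam ratios therefore rest on a reference signal near background. Slides accounted for 74.9% of the Icam1 variation left after group means were removed, 72.3% for Selplg and 46.9% to 61.8% for the other 5 members, with a median of 62.3% over all genes and 30.9% given by the number of slides alone. Each comparison was therefore computed without the slide, as in the design of the study, and again with the slide as a block. Vehicle arrays of day 1 shared slides with all doses of 1 particle, which was NRCWE-001 on 3 slides and NRCWE-002 on 2.

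With groups alone, limma called 0 of 7 members in the F-test of dose for either particle on either day, where the share of all genes called was 0.879% (NRCWE-001) and 0.771% (NRCWE-002) on day 1, and 0.686% and 0% on day 28. The members with an unadjusted F-test p under 0.05 numbered 3, 4, 1 and 0 in that order, beside 1503, 1510, 1539 and 813 of all 17628 genes. The limma fit likewise called 0 of the 84 differences between a dose and its vehicle, with 0.624% of genes called at 162 µg of NRCWE-001 and 0.590% at the same dose of NRCWE-002 on day 1. In the other 10 of these comparisons the share was 0.113% at 54 µg of NRCWE-002 on day 1, 0.193%, 0.00567% and 0.0511% at 18, 54 and 162 µg of NRCWE-001 on day 28, 0.00567% at 162 µg of NRCWE-002 on day 28 and 0% elsewhere. At an unadjusted limma p under 0.05, 8 of the 84 differences passed, all on day 1. These were 1 at 54 µg and 3 at 162 µg of NRCWE-001 and 4 at 162 µg of NRCWE-002. Of all 17628 genes, 879, 1290 and 1650 passed in these comparisons. By the exact permutation test 9 of the 84 passed. It was run for the members only, so no share of all genes stands beside this count. Whether it is more than other genes would give cannot be told. With the slide as a block, limma called Icam1 and Vcam1 in the F-test for NRCWE-001 on day 1, where 7.63% of all genes were then called, and Icam1 and Itgam at single doses as given below. The shares in the other 3 F-tests with the slide, in which 0 of 7 members were called, were 2.40%, 2.17% and 0.0284%. At the doses of day 1 without a call among the members they were 0.0227% at 18 µg of NRCWE-001 and 0.00567%, 1.51% and 1.96% at the rising doses of NRCWE-002.

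At 162 µg on day 1, the group mean of each of the 7 members was higher than in vehicle for both particles. This sign did not hold throughout for Itgb2, which differed by -0.045 at NRCWE-002 with the slide as a block and by -0.0043 at NRCWE-001 without vehicle replicate 5, or for Selplg, which was -0.021 at NRCWE-001 without that array. Sele was not well above background in any vehicle lung. The median log2 difference over the members was 0.23 (NRCWE-001) and 0.25 (NRCWE-002), beside medians over all genes of -0.00087 and 0.0054. At 18 µg on day 1 it was -0.024 and -0.067, and at 54 µg 0.10 and 0.12. Both particles were compared with the same vehicle lungs, so these values are not independent of each other.

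**Figure D1:**
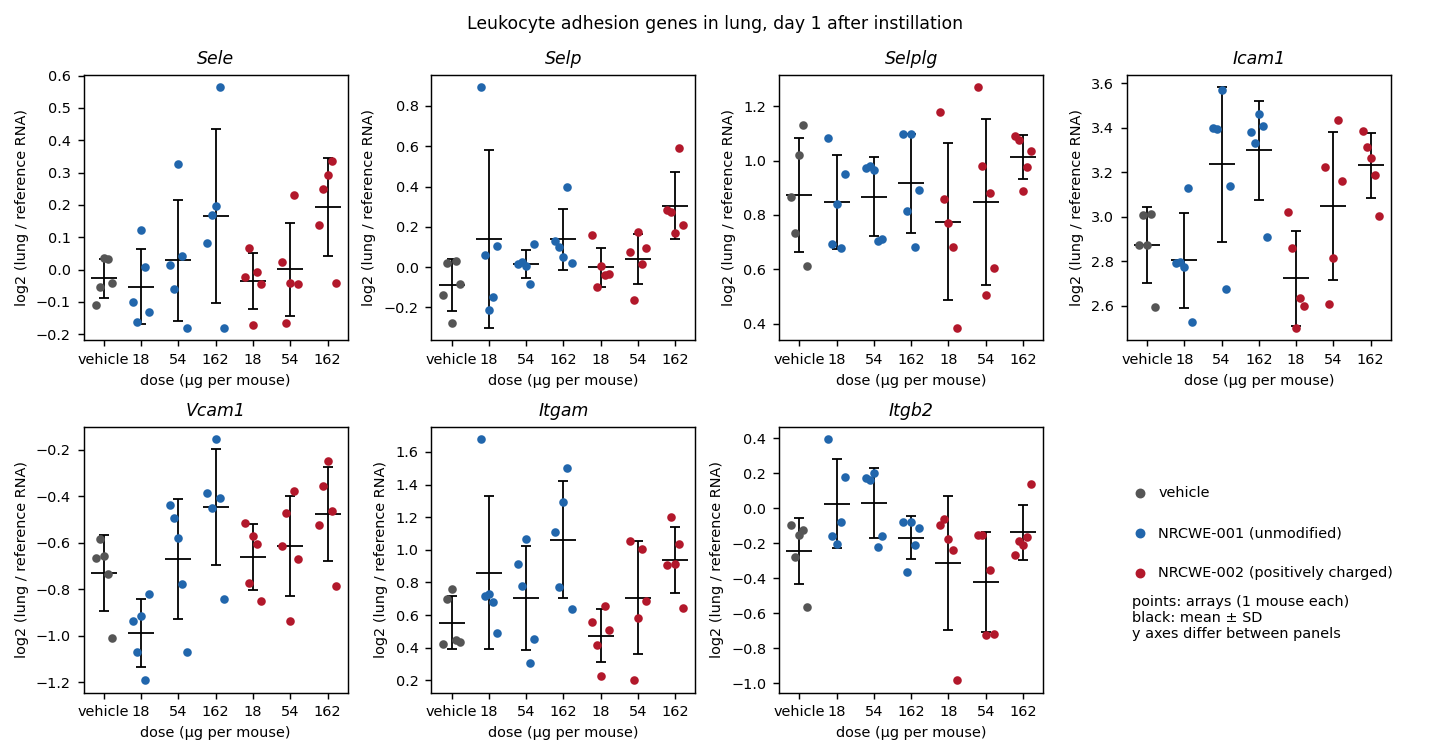
Log2 ratio of lung to reference RNA (y axis, scaled per gene) in vehicle lungs and at 18, 54 and 162 µg of each particle (x axis) on day 1. Points are single mice and black marks are the mean ± SD; most Icam1, Itgam and Selp points at 162 µg lie above the vehicle points, while Selplg and Itgb2 points overlap them.

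Icam1 codes for the endothelial and epithelial ligand of the β2 integrins. It passed at 54 and 162 µg of NRCWE-001 on day 1 with the slide as a block and at no dose without it. Its log2 ratios in the 5 vehicle lungs of day 1 were 2.87, 3.01, 2.87, 3.01 and 2.60. With NRCWE-001 they were 2.79, 2.80, 2.78, 3.13 and 2.53 at 18 µg, 3.40, 3.39, 3.57, 2.67 and 3.14 at 54 µg, and 3.38, 3.33, 3.46, 3.41 and 2.91 at 162 µg. At 54 and at 162 µg, 4 of 5 lungs lay above every vehicle lung, whereas the 18 µg lungs overlapped vehicle. The share of all genes with 4 of 5 lungs above vehicle was not counted, here or for the members below.

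The Icam1 difference at 162 µg of NRCWE-001 was 0.42 ± 0.16 (SE, n = 5) on the log2 scale, a 1.34-fold higher level, with a limma adjusted p of 0.320 and an exact two-sided permutation p of 0.0238. The smallest p that 5 against 5 arrays allow is 0.00794. With the slide as a block it was 0.43 ± 0.10 and passed, with a limma adjusted p of 0.00791, where 4.11% of all genes were called. At 54 µg the difference rose from 0.36 ± 0.16 (adjusted p = 0.905 by limma) to 0.52 ± 0.10 with the slide (limma adjusted p = 0.0117, 0.698% of all genes called).

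Compared only within slides, Icam1 was higher than the vehicle array of the same slide by 0.38 to 0.70 at 54 µg and by 0.32 to 0.59 at 162 µg, in 3 of 3 slides each. At 18 µg it was lower in 3 of 3 slides, with differences of -0.21 to -0.08. The arrays in which Icam1 was low at the upper doses, 2.67 at 54 µg and 2.91 at 162 µg, lay on slides without vehicle. In the F-test for NRCWE-001 on day 1, the limma adjusted p of Icam1 was 0.155 without and 0.000112 with the slide, and leaving out either of these arrays was enough for limma to call it without the slide. Each was the lowest of its group, so leaving it out favours a call.

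With NRCWE-002, Icam1 read 3.02, 2.86, 2.50, 2.63 and 2.60 at 18 µg, 3.22, 2.61, 2.82, 3.44 and 3.16 at 54 µg, and 3.39, 3.32, 3.26, 3.19 and 3.01 at 162 µg. The 162 µg lungs again lay above every vehicle lung in 4 of 5 cases. The difference at 162 µg was 0.36 ± 0.16 (limma adjusted p = 0.413, exact permutation p = 0.0238) and 0.38 ± 0.12 with the slide (limma adjusted p = 0.0707). Within the 2 slides that held vehicle and all 3 doses, it was 0.37 and 0.67 at 162 µg, 0.21 and 0.56 at 54 µg, and 0.0034 and 0.010 at 18 µg. With the scan day in place of the slide, limma called it at 162 µg (adjusted p = 0.00890).

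**Figure D2:**
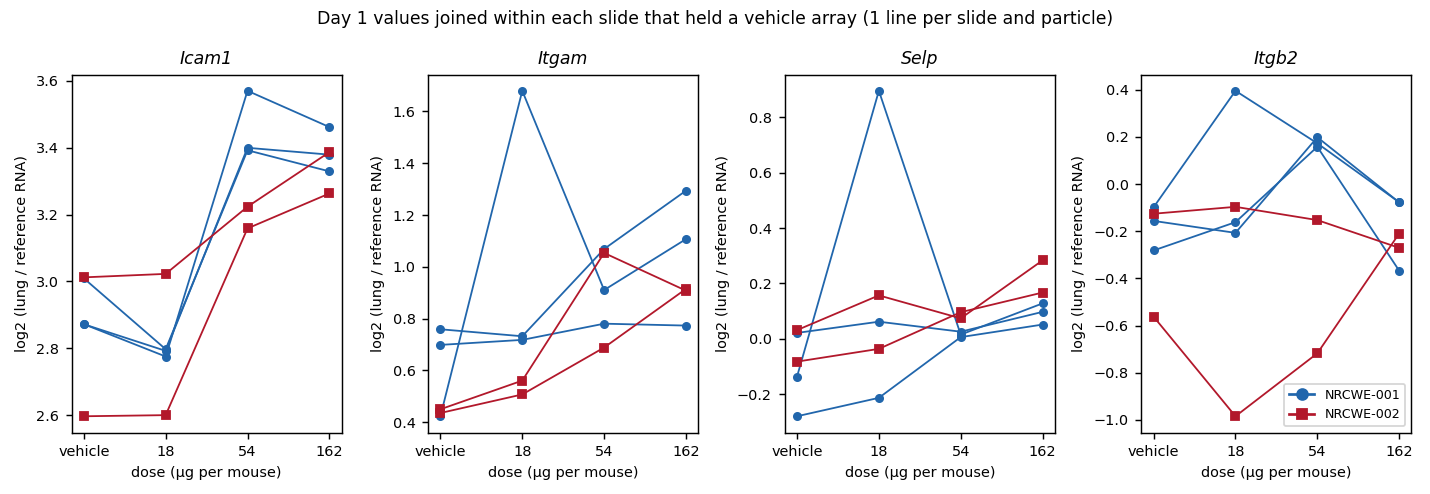
Log2 ratio of Icam1, Itgam, Selp and Itgb2 (y axis) by dose (x axis) on day 1, with a line for each slide that held a vehicle array. Icam1 lines of both particles run flat or downwards from vehicle to 18 µg and lie above vehicle at 54 and 162 µg in every slide; the Selp and Itgam peak at 18 µg is 1 array.

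Vcam1 codes for the ligand of the α4 integrins on monocytes and lymphocytes. Its ratios were -0.66, -0.59, -0.66, -0.73 and -1.01 in vehicle and -0.38, -0.45, -0.15, -0.41 and -0.84 at 162 µg of NRCWE-001, so that 4 of 5 exposed lungs lay above all vehicle lungs. At 18 µg of NRCWE-001 it read -0.94, -1.07, -0.92, -1.19 and -0.82, the lowest group mean of the 14. Thus Vcam1 was lower than vehicle at 18 µg (log2 difference -0.26 ± 0.15, exact permutation p = 0.0397, limma adjusted p = 1.000) and higher at 162 µg (0.28 ± 0.15, limma adjusted p = 0.744), and neither passed.

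With the slide as a block, the differences of Vcam1 were -0.24 ± 0.12 at 18 µg and 0.37 ± 0.12 at 162 µg (limma adjusted p = 0.543 and 0.0743), and the F-test over the 3 doses passed (limma adjusted p = 0.00419, against 0.253 without the slide). In all 3 slides with vehicle the 18 µg array was lower and the 162 µg array higher than vehicle. The brighter of its 2 probes gave a larger difference at 162 µg than the dimmer one, 0.40 ± 0.16 against 0.17 ± 0.19. At 54 µg the probes differed in sign, at 0.18 ± 0.16 and -0.07 ± 0.19. They also did so at 54 µg of NRCWE-002 on day 28, at 0.05 ± 0.17 and -0.48 ± 0.21. With NRCWE-002 Vcam1 differed from vehicle by 0.07, 0.12 and 0.25 at 18, 54 and 162 µg (SE 0.15 each).

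**Figure D3:**
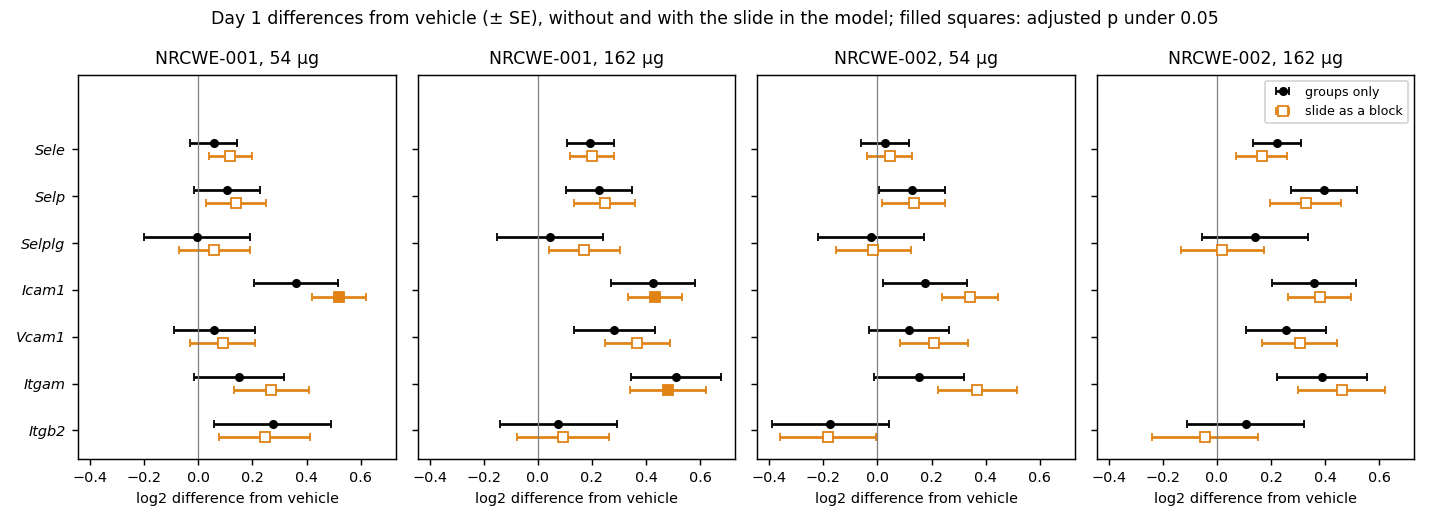
Log2 difference from vehicle on day 1 (x axis) for each member (y axis) at 54 and 162 µg of each particle, with bars of 1 SE. Black points come from the fit of groups alone and orange squares from the fit with the slide as a block; the 3 filled squares, Icam1 at 54 and 162 µg and Itgam at 162 µg of NRCWE-001, had a limma adjusted p under 0.05.

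Selp, coding for the P-selectin of endothelium and platelets, was the only member whose 5 exposed lungs all lay above all 5 vehicle lungs on day 1, and this at 162 µg of NRCWE-002. It read 0.28, 0.27, 0.17, 0.59 and 0.21 there against -0.14, 0.02, -0.28, 0.03 and -0.08 in vehicle, a pattern shown by 3.00% of all genes in that comparison. The log2 difference was 0.39 ± 0.12 (1.31-fold, exact permutation p = 0.00794, the smallest possible, limma adjusted p = 0.139). Its main probe, spotted 10 times per array, differed by 0.58 ± 0.14 and the dimmer one by 0.21 ± 0.15. With the main probe alone, limma called the gene (adjusted p = 0.0282), and with the slide as a block the difference was 0.33 ± 0.13 (limma adjusted p = 0.20).

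At 162 µg of NRCWE-001, Selp read 0.13, 0.10, 0.05, 0.40 and 0.02, and 4 of 5 lungs exceeded all vehicle lungs (log2 difference 0.23 ± 0.12, exact permutation p = 0.0238, limma adjusted p = 0.763). With the processed signals of the scanner software in place of the deposited ratios it was 0.59, also without passing. The highest Selp ratio of any array on day 1, 0.90, belonged to 1 lung at 18 µg of NRCWE-001, whose other 4 lungs lay between -0.21 and 0.10. The same lung had the highest Itgam ratio of all 69, 1.68. Its marker scores, given as mean log2 ratios over a list, were 1.45 for neutrophils and 1.25 for platelets, within the ranges 1.24 to 1.59 and 0.77 to 1.35 of its group. Its lymphocyte score of 1.00 and heart muscle score of 3.19 were the highest of the group, and their part in these values was not tested.

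Sele codes for E-selectin, which endothelium makes when activated. Its ratios of -0.11, -0.05, 0.04, 0.03 and -0.04 in vehicle stand for a probe not well above background on any of these arrays. At 162 µg they were 0.08, 0.17, 0.20, 0.57 and -0.18 with NRCWE-001 and 0.14, 0.25, 0.29, 0.33 and -0.04 with NRCWE-002, and 2 of 5 arrays of each group were above background. On day 1 this was also 2 of 5 at 54 µg of NRCWE-001 and at 18 µg of NRCWE-002. It was 1 of 5 at 18 µg of NRCWE-001 and at 54 µg of NRCWE-002. In the lung channel alone, relative to each array's median signal, vehicle arrays were raised to the lowest signal called above background. The means at 162 µg were 0.947-fold (NRCWE-001) and 1.05-fold (NRCWE-002) of that vehicle mean. Most arrays of each exposed group were themselves not above background, so no fold can be given for either particle. The log2 differences of the deposited ratios, 0.19 ± 0.09 and 0.22 ± 0.09, did not pass (limma adjusted p = 0.558 and 0.326).

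Itgam codes for the αM chain of Mac-1, carried by neutrophils, monocytes and macrophages. On day 1 it read 0.42, 0.70, 0.76, 0.45 and 0.44 in vehicle, 1.11, 0.77, 1.29, 1.50 and 0.64 at 162 µg of NRCWE-001, and 0.91, 1.20, 0.91, 1.03 and 0.65 at 162 µg of NRCWE-002. In both exposed groups 4 of 5 lungs exceeded every vehicle lung, a pattern whose share of all genes was not counted. At 54 µg the ranges were 0.30 to 1.07 and 0.20 to 1.05, overlapping vehicle.

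The Itgam difference at 162 µg of NRCWE-001 was 0.51 ± 0.17 (1.42-fold, exact permutation p = 0.0317, limma adjusted p = 0.194). It passed with the slide as a block, at 0.48 ± 0.14 (limma adjusted p = 0.0385), and without the slide when the lung reading 0.64 was left out (0.62, limma adjusted p = 0.0449). That lung was the lowest of its group and the same one that read 2.91 for Icam1. Leaving it out therefore favours a call, and the calls of the 2 genes without it are not separate support. At 162 µg of NRCWE-002 the Itgam difference was 0.39 ± 0.17 (limma adjusted p = 0.408, exact permutation p = 0.0238), and 0.46 ± 0.16 with the slide (limma adjusted p = 0.131). Within slides the difference at 162 µg was positive in 3 of 3 slides for NRCWE-001, from 0.07 to 0.68, and in 2 of 2 for NRCWE-002, at 0.46 and 0.48. Both Itgam probes gave it, at 0.41 ± 0.15 and 0.61 ± 0.22 for NRCWE-001. With the processed signals of the scanner software in place of the deposited ratios, the differences at 162 µg of NRCWE-002 were 0.93 for Itgam and 1.03 for Selp, over 1.5 times those above, and neither passed (limma adjusted p = 0.559 and 0.211).

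Itgb2 codes for the β2 chain that pairs with αM and with the other chains of that integrin family. On day 1 it read -0.10, -0.28, -0.16, -0.13 and -0.56 in vehicle and -0.08, -0.37, -0.08, -0.21 and -0.11 at 162 µg of NRCWE-001, which overlap. The difference was 0.08 ± 0.22 there and 0.11 ± 0.22 for NRCWE-002 (limma adjusted p = 1.000 and 0.980). Selplg, whose product is the selectin ligand on leukocytes, read 0.87, 0.73, 1.02, 1.13 and 0.61 in vehicle and 1.10, 0.81, 1.10, 0.68 and 0.89 at 162 µg of NRCWE-001. Its differences at 162 µg were 0.04 ± 0.20 and 0.14 ± 0.20 (limma adjusted p = 1.000 and 0.953). The 95% intervals with NRCWE-001 ran from -0.36 to 0.51 for Itgb2 and from -0.35 to 0.44 for Selplg.

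The differences between the particles at matched dose and day were tested in 6 pairs, and limma called 0 of 7 members in any of them, as it did for the mean of the 3 doses on each day. The share of all genes called was 0.00567%, 0.0964% and 0% at the rising doses of day 1, 0.165%, 0.0284% and 0% at those of day 28, and 0.108% and 6.73% for the means. At 162 µg on day 1 the log2 difference of NRCWE-002 minus NRCWE-001 was -0.07 (95% interval -0.38 to 0.25) for Icam1, 0.17 (-0.08 to 0.41) for Selp, -0.12 (-0.46 to 0.21) for Itgam and -0.03 (-0.33 to 0.27) for Vcam1. These intervals do not show that the particles act alike. At 18 µg on day 1, Vcam1 was higher (0.32, 0.03 to 0.62) and Itgam lower (-0.39, -0.72 to -0.05) with NRCWE-002, at limma p-values adjusted over the 6 pairs of 0.180 and 0.120. The Itgam value includes the lung at 1.68, and with the slide as a block it was -0.07 ± 0.16. The other intervals that left out 0 were those of Itgb2 at 54 µg on day 1 (-0.45, -0.88 to -0.02) and Itgam at 18 µg on day 28 (0.35, 0.02 to 0.69), with limma p-values adjusted over the 6 pairs of 0.237 and 0.120.

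On day 28 no dose of either particle passed for any member, also with the slide as a block, where 0.511%, 0.0227% and 0% of all genes were called at the rising doses of NRCWE-001 and 0%, 0% and 0.00567% at those of NRCWE-002. Of the differences, 22 of 42 were positive against 30 of 42 on day 1. Those of a day share 1 vehicle group and are not independent, and these counts were not tested. At an unadjusted p under 0.05, 0 of the 42 differences of day 28 passed by limma and 1 by the exact permutation test. By limma, 455 to 1294 of all 17628 genes passed in each of these comparisons. Icam1 read 3.41, 3.08, 3.02 and 3.16 in vehicle, 3.20, 2.63, 2.75, 3.23 and 3.11 at 162 µg of NRCWE-001, and 3.36, 3.26, 2.92, 3.21 and 2.68 at 162 µg of NRCWE-002. The exposed lungs overlapped vehicle, and the differences were -0.18 ± 0.16 and -0.08 ± 0.16 (limma adjusted p = 0.929 and 0.953). With the slide as a block they were 0.10 ± 0.12 and -0.03 ± 0.11. The change in the 162 µg difference from day 1 to day 28 was -0.61 ± 0.23 for Icam1 with NRCWE-001 and -0.43 ± 0.18 for Selp with NRCWE-002, and neither passed (limma adjusted p = 1.000 and 0.653), nor did any other gene. Its size depended on the processing. Over the alternatives, among them the slide as a block, it ran from -0.71 to -0.29 for Icam1 and from -1.16 to -0.27 for Selp, without passing.

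Between the vehicle lungs of the 2 days, limma called 0 of 7 members and 0% of all genes. Icam1 was higher by 0.30 ± 0.16 and Vcam1 by 0.31 ± 0.16 on day 28 than on day 1, each with an exact permutation p of 0.0238 and a limma adjusted p of 0.918. No slide held vehicle lungs of both days, and with the slide as a block the values were 0.06 ± 0.15 and 0.43 ± 0.18. Itgam at 54 µg of NRCWE-001 read 0.42, 0.51, 0.49, 0.52 and 0.53 on day 28, all below the 4 vehicle lungs at 0.77, 0.70, 0.56 and 0.77, as 0.618% of all genes did. The difference was -0.21 ± 0.18 (exact permutation p = 0.00794, limma adjusted p = 1.000).

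**Figure D4:**
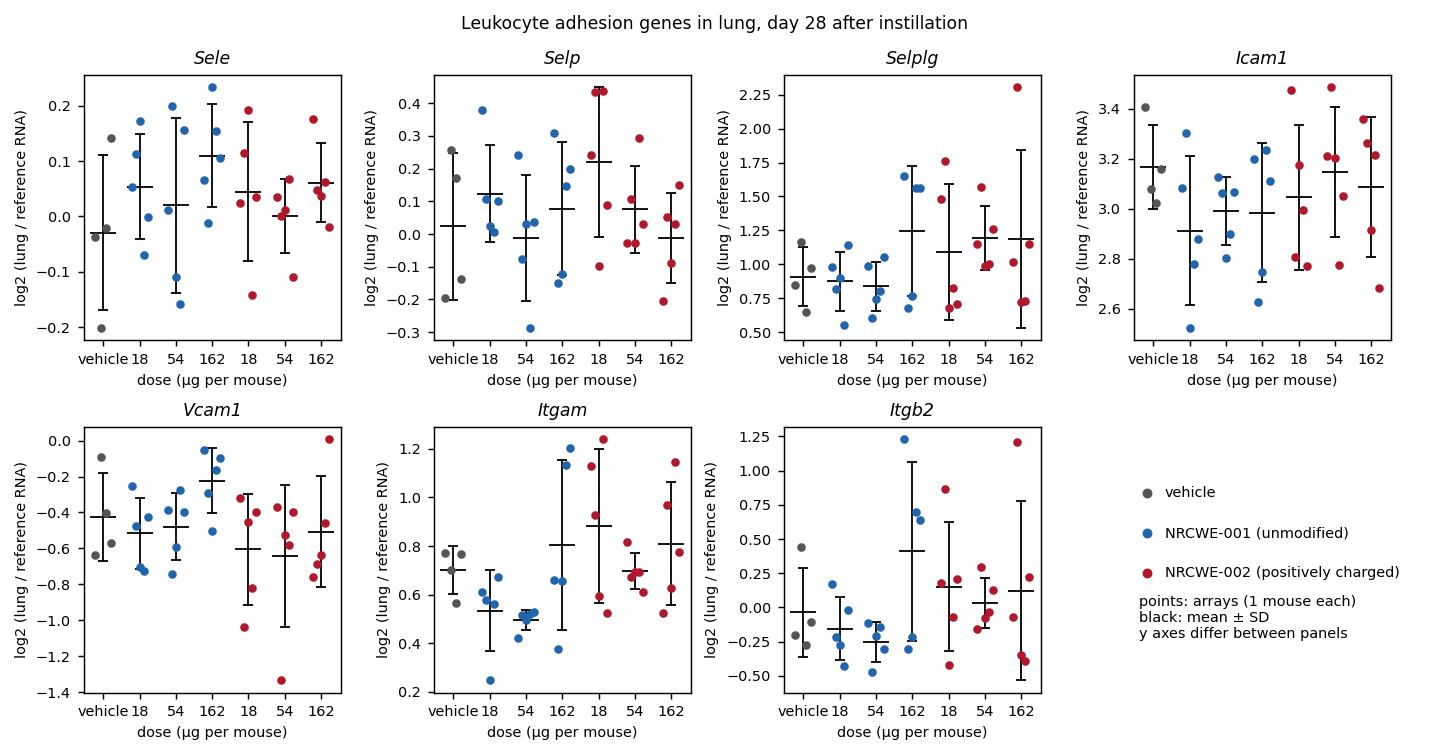
Log2 ratio of lung to reference RNA (y axis, scaled per gene) in vehicle lungs and at 18, 54 and 162 µg of each particle (x axis) on day 28. Points are single mice and black marks are the mean ± SD; the spread of Selplg and Itgb2 at 162 µg comes from 3 lungs of NRCWE-001 and 1 of NRCWE-002.

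Selplg and Itgb2 spread most on day 28. At 162 µg of NRCWE-001 Itgb2 read 1.23, -0.30, -0.21, 0.69 and 0.64 and Selplg 1.65, 0.68, 0.77, 1.56 and 1.56, so that the same 3 lungs were high in both. Their macrophage and monocyte marker scores were 2.42, 2.18 and 2.14, against 1.47 and 1.73 in the other two, and the part of these cells in the result was not tested. The differences from vehicle were 0.45 ± 0.23 and 0.33 ± 0.21 (limma adjusted p = 0.705 and 0.809). On the 1 slide that held 3 NRCWE-002 lungs of day 28 and no vehicle, Selplg read 1.76, 1.57 and 2.31 at 18, 54 and 162 µg and Itgb2 0.86, 0.30 and 1.21, each the highest of its group.

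Over the 14 groups, the order of mean levels ran from 3.30 (162 µg of NRCWE-001, day 1) down to 2.72 (18 µg of NRCWE-002, day 1) for Icam1, and from 1.06 to 0.47 between the same groups for Itgam. It ran from 0.30 (162 µg of NRCWE-002, day 1) to -0.09 (vehicle, day 1) for Selp, and from 0.41 (162 µg of NRCWE-001, day 28) to -0.42 (54 µg of NRCWE-002, day 1) for Itgb2. For Vcam1 and Selplg the top group was also 162 µg of NRCWE-001 on day 28, at -0.22 and 1.24. In each of the 7 genes, every group overlapped the next in this order.

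The members were tied to each other to different degrees from lung to lung. The permutations moved arrays within groups across slides, so their p-values take no account of the likeness of arrays on 1 slide. The r after slide means were removed was not tested. After group means were removed, Selplg and Itgb2 were tied most closely over the 69 arrays (Pearson r = 0.88, Spearman rho = 0.85, permutation adjusted p = 0.00021 for both over 21 pairs). The r was 0.83 without the 2 arrays farthest out in Selplg and 0.89 after slide means were removed too. Itgam and Itgb2, whose products form 1 receptor, gave r = 0.24 and rho = 0.27 (permutation adjusted p = 0.178 and 0.0866), and r = 0.36 after removal of slide means. The reference signal of Itgam was often not above background, and its part in these values was not tested.

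Icam1 and Itgam gave r = 0.52 and rho = 0.51 (permutation adjusted p = 0.00115 and 0.00189), with 0.46 without the 2 farthest arrays, but 0.14 once slide means were removed, so that this tie did not hold within slides. Icam1 and Sele gave r = 0.39 and rho = 0.35 (permutation adjusted p = 0.0118 and 0.0191) and r = 0.0030 within slides. Selp and Itgam gave r = 0.51 and rho = 0.43 (permutation adjusted p = 0.00614 and 0.00805), with r = 0.38 without the 2 farthest arrays and 0.72 within slides. The 1 lung high in both contributes to that value.

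**Figure D5:**
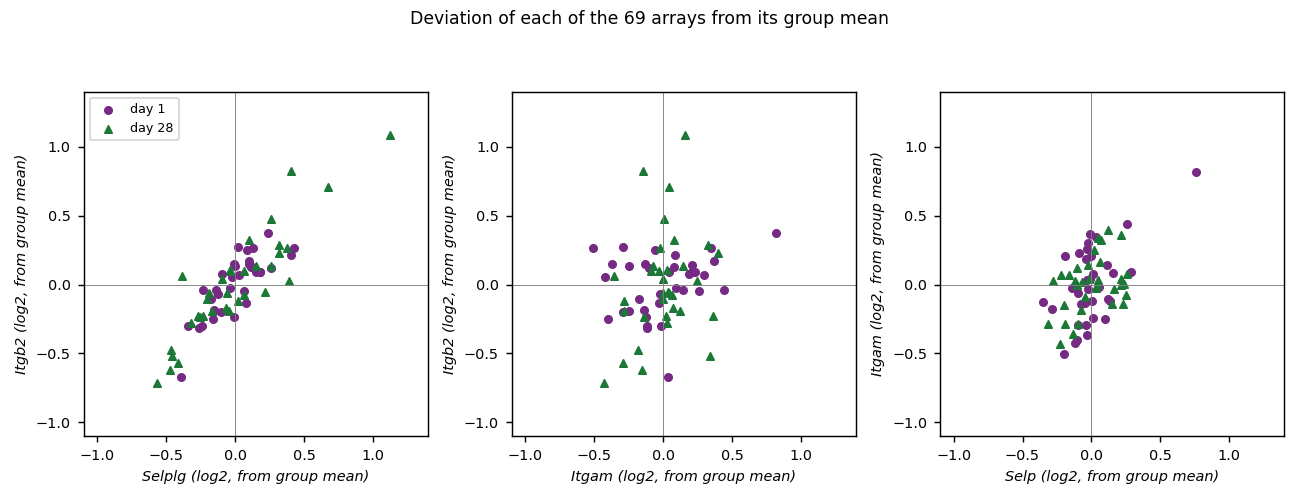
Deviation of each of the 69 arrays from its group mean on the log2 scale, for Itgb2 against Selplg, Itgb2 against Itgam and Itgam against Selp. Points mark day 1 and triangles day 28; the first pair lies along a line (r = 0.88) and the second does not (r = 0.24), while 1 array stands alone at the upper right of the third.

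Markers of the cells that carry these molecules were read beside them. Of 14 neutrophil markers measured, 3 rose at 162 µg of NRCWE-001 on day 1 (median log2 difference 0.64, 0.624% of all genes called) and 0 passed for NRCWE-002 (median 0.38, 0.590% called). These became, in the fit with the slide as a block, 6 (S100a8, Csf3r, Cxcr2, Mmp8, Mmp9 and Cd177, where 4.11% of all genes were called) and 1 (Csf3r, where 1.96% were). Cd177 rose by 1.27 ± 0.31 with NRCWE-001 (limma adjusted p = 0.0294), Ltf differed by 1.38 ± 0.67 without passing, and Csf3r and Cxcr2, named after their values were seen, were the other two that passed. Fpr1, likewise named after its values were seen, differed the other way without passing, by -0.65 ± 0.28 and -0.55 ± 0.28 for the 2 particles, and Ngp and Camp lay near 0, at -0.05 each with NRCWE-001. The mean neutrophil score ran from 1.23 to 1.62 in vehicle, from 1.38 to 2.42 at 162 µg of NRCWE-001 and from 1.48 to 2.01 at 162 µg of NRCWE-002. Its range overlapped vehicle and reached higher in both exposed groups, as did those of Itgam and Icam1, and its part in their differences was not tested.

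Of 12 macrophage and monocyte markers, Cd14 rose and Siglecf fell in both 162 µg groups of day 1, Cd14 by 1.31 ± 0.34 and 1.56 ± 0.34 and Siglecf fell by 1.00 ± 0.25 in each (limma adjusted p from 0.0107 to 0.0479). The Siglecf call for NRCWE-002 at 162 µg was lost with the slide as a block, and the other 3 calls at this dose remained. Without the slide, 0.624% and 0.590% of all genes were called there. The list's median differences were -0.16 and -0.05, and its other markers lay on both sides of 0 without passing. At 54 µg of NRCWE-002 on day 1, Siglecf was also called lower without the slide, by 1.27 ± 0.25 (limma adjusted p = 0.0103, 0.113% of all genes called). Of 12 endothelial markers, all above background on 69 arrays, 0 passed, with median differences of -0.14 and -0.11. The platelet list (9 measured), lymphocyte list (9), lung epithelium list (7) and heart muscle list (5) likewise had 0 called at 162 µg on day 1, with or without the slide as a block, and without it had medians of -0.14 and 0.000036, -0.19 and -0.02, -0.14 and -0.13, and 0.50 and 1.06.

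Over the 69 arrays with group means removed, Itgb2 and Selplg followed the macrophage score (r = 0.66 and 0.64) and still did so within slides (0.68 and 0.65). Icam1 and Itgam followed the neutrophil score (r = 0.51 and 0.47), but not within slides (0.02 and -0.01). The permutation p-values adjusted over 49 pairs were 0.000735, 0.00049, 0.0011 and 0.00502, and the rho values were 0.57, 0.59, 0.46 and 0.45 (permutation adjusted p = 0.00098, 0.00098, 0.00261 and 0.00502). Without the 2 arrays farthest out in the member, r was 0.59, 0.63, 0.43 and 0.48. As for the pairs of members, these permutations took no account of slides, and the r within slides was not tested.

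The same members also followed other scores. Selplg followed the lymphocyte score about as closely as the macrophage score (r = 0.60, rho = 0.58, permutation adjusted p = 0.000817 and 0.00098, 0.66 within slides), and Itgb2 followed it too (r = 0.43, rho = 0.44, permutation adjusted p = 0.0308 and 0.00681, 0.54 within slides). Itgam also followed the lymphocyte score (r = 0.49, rho = 0.49, permutation adjusted p = 0.00237 and 0.00184), and this tie held within slides (0.47). Icam1 followed the macrophage score (r = 0.50, rho = 0.50, permutation adjusted p = 0.00237 and 0.00261), with 0.37 within slides. Without the 2 arrays farthest out in the member, these r values were 0.64, 0.45, 0.47 and 0.47. Icam1 also followed the lung epithelium, endothelium and lymphocyte scores (r = 0.47, 0.41 and 0.38), with -0.19, -0.03 and 0.07 within slides. Itgam followed the lung epithelium, macrophage and heart muscle scores (r = 0.39, 0.38 and 0.31), with -0.03, 0.03 and 0.26 within slides. Selplg followed the lung epithelium and neutrophil scores (r = 0.39 and 0.32), with -0.18 and 0.15 within slides. The permutation adjusted p of r ran from 0.00371 to 0.0452 over these ties. That of rho was 0.0523 for Icam1 with endothelium and 0.0686 for Itgam with heart muscle, which did not pass, and under 0.05 for the others.

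Of the cytokines and NF-kB feedback genes known to act with endothelial adhesion molecules, 16 were measured. At 162 µg on day 1, Il1b, Nfkbiz and Socs3 rose with NRCWE-001 and Il1b and Nfkbia with NRCWE-002, and none was called lower. The shares of all genes called were 0.624% and 0.590%, and 4.11% and 1.96% with the slide as a block. In the limma fit with the slide as a block, the genes called were Il1b, Il6, Nfkbiz, Nfkb2 and Socs3 with NRCWE-001, and Il1b and Nfkb2 with NRCWE-002, so that the Nfkbia call was lost. The list's median log2 difference was 0.41 and 0.52. Il1b, which codes for a cytokine that activates endothelium, rose by 1.76 ± 0.37 and 1.78 ± 0.37 (limma adjusted p = 0.00857 and 0.00852). On day 28 the medians at 162 µg were 0.42 and 0.34, with 0 called.

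Of 49 other genes of rolling, arrest and crossing of the vessel wall, 0 passed in any of the 12 dose comparisons, and the median difference at 162 µg on day 1 was 0.01 and 0.03. Gcnt1, an enzyme that builds the sugar branch selectins bind, was called in the F-test for NRCWE-001 on day 1 (limma adjusted p = 0.0415), with differences of 0.06, 0.31 and 0.31 ± 0.09 at 18, 54 and 162 µg. With the slide as a block, limma called Gcnt1 (0.35 ± 0.08) and Mcam, an adhesion molecule of endothelium (0.39 ± 0.11), at 162 µg of NRCWE-001, which is 2 of the 49 where 4.11% of all genes were called. In the mean of the doses on day 28, 5 of the 49 differed between the particles, where 6.73% of all genes did. Itgb7 and Fermt3 were higher with NRCWE-002 and Madcam1, B4galt1 and Icam4 lower, and none of these passed with the slide as a block (limma adjusted p from 0.688 to 0.785).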

How the data were processed

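RNA of 69 mouse lungs was hybridised to 2-colour whole-genome arrays by the authors, with the lung sample in Cy5 and the common reference in Cy3, and scanned spots were read with Agilent Feature Extraction 11.0.1.1. The authors deposited LOWESS-normalised log2 ratios of lung over reference for each probe, which were the values used. Their sign was checked against the deposited scanner intensity of each spot, where each array correlated with its own unnormalised ratio at r = 0.918 to 0.995. Array medians lay between -0.0586 and -0.00264.

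Probes were named through the transcript identifier of the scanner files and kept where the lung channel was well above background on at least 4 arrays, and genes were the median over kept probes. Groups came from the sample labels. All 69 arrays entered 1 limma 3.58.1 fit (R 4.3.3) with 14 group means, with Benjamini-Hochberg adjustment over 17628 genes in each comparison and an adjusted p under 0.05 as the threshold. Single members were also compared by exact two-sided permutation of arrays, and correlations by 100000 permutations within groups. Both kinds of permutation took no account of slides. Intervals are at 95%. The fit was tested on simulated data. Alternatives changed the normalisation, centring, probe filter, probe summary, slide or scan day block, arrays in the fit, variance moderation and single arrays. The number of arrays limits the precision, and p-values measure only the spread between these arrays.

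The 7 members were named throughout. Of the pathway list, called genes were named, of the marker lists at most the 2 with the largest change at 162 µg on day 1, and for likeness the 3 genes with the highest r, of which 1 for Itgam is not reported here. The members and lists were chosen with earlier results of these data known. Symbols from RefSeq were matched for 27479 of 41174 probes.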

Additional observations from a re-analysis of the deposited data

Results flagged for a closer look

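Each member was examined for single lungs far from the rest of their group, in 98 groups of 4 or 5 lungs. A gap this wide is reached by chance in about 1 in 20 groups, and 10 were found. All values are log2 ratios of lung to reference.

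With NRCWE-001, 1 lung at 18 µg on day 1 read 0.90 for Selp (others -0.21 to 0.10) and 1.68 for Itgam (others 0.49 to 0.73). At 162 µg on day 1, Icam1 read 2.91 in 1 lung (others 3.33 to 3.46). At 18 µg on day 28, Selp read 0.38 in 1 lung (others 0.01 to 0.11) and Itgam 0.25 in another (others 0.56 to 0.67).

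With NRCWE-002, Selp read 0.59 in 1 lung at 162 µg on day 1 (others 0.17 to 0.28), and Itgb2 read 0.14 in another lung of that group (others -0.27 to -0.16). Itgb2 also read -0.98 in 1 lung at 18 µg on day 1 (others -0.24 to -0.06). On day 28, Vcam1 read -1.33 in 1 lung at 54 µg (others -0.58 to -0.37) and Selplg 2.31 in 1 lung at 162 µg (others 0.72 to 1.15), and both lungs lay on the same slide.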

How the results depend on the processing

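Of 27 counts of called members, 22 stayed at 0 under every alternative run. In the F-test of NRCWE-001 doses on day 1 it rose to 1 with the brightest probe of a gene (Vcam1), 2 with the slide as a fixed or random block or with the scan day (Icam1 and Vcam1), and 0 to 1 when each array was left out (Icam1 without replicate 4 at 54 µg or replicate 5 at 162 µg). In that for NRCWE-002 it was 1 with the brightest probe (Selp) and 1 with the scan day (Icam1). Against vehicle on day 1 it was 1 at 54 µg of NRCWE-001 with the slide as a fixed or random block or with the scan day (Icam1). At 162 µg of NRCWE-001 it was 2 with each of these (Icam1 and Itgam), and 0 to 1 when each array was left out (Itgam without replicate 5 at 162 µg). At 162 µg of NRCWE-002 it was 1 with the brightest probe (Selp) and 1 with the scan day (Icam1). At 162 µg of NRCWE-001 the sign turned for Selplg, which ran from -0.021 to 0.11 with single arrays left out (-0.0012 without replicate 1, -0.0015 without replicate 3 and -0.021 without vehicle replicate 5), and for Itgb2, which ran from -0.0043 (without vehicle replicate 5) to 0.12. For NRCWE-002, Itgb2 was -0.045 with the slide as a fixed block. The cause was not tested. With the processed signals of the scanner software, Sele at 162 µg on day 1 differed by 1.46 with NRCWE-001 and 1.30 with NRCWE-002, and it was not measured with a filter at 35 arrays. Sele is limited by its signal, with 13 of 69 arrays above background. By replicate number no paired analysis was possible because the labels give none and replicates were numbered in accession order, and exposed and vehicle arrays were compared within slides instead.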

Other observations

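The genes whose log2 ratio was most like that of each member over the 69 arrays were read as a description, with r after removal of group and slide means beside it. The arrays share slides and the common reference. Selplg ran closest to Rac2 (r = 0.92, then 0.85), which codes for a small GTPase of blood cells, Coro1a (0.89, then 0.84), which codes for an actin-binding protein of leukocytes, and Pld4 (0.87, then 0.86). Itgb2 ran closest to Myo1f (0.91, then 0.87), which codes for a myosin of immune cells, Acp5 (0.86, then 0.81) and Selplg (0.85, then 0.89).

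The genes most like Itgam included Pilrb1 (0.78, then 0.77) and Ccl9 (0.72, then 0.59), a chemokine gene. Selp was most like Emilin2 (0.71, then 0.77), Cfp (0.61, then 0.65), which codes for properdin, and Alox15 (0.61, then 0.69). Icam1 was most like Muc1 (0.76, then 0.41), which codes for an epithelial mucin, Neurl3 (0.70, then 0.52) and Serpinb9 (0.70, then 0.59). Vcam1 was most like Ciao2a (0.75, then 0.65), AI662270 (0.75, then 0.76) and Plek (0.75, then 0.57). Sele, dim on most arrays, was most like Cyp7b1 (0.67, then 0.54), Saa4 (0.62, then 0.54) and Ctps (0.61, then 0.42).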
